A study of Homo sapiens with 8 samples.

Results

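The genes described here are 34 genes of mitochondrial and peroxisomal fatty acid oxidation, picked by symbol from the pathway with earlier results of these data known. All 34 were among the 25369 genes listed for the libraries. They were measured by RNA sequencing of EPC2-hTERT, a line of human esophageal keratinocytes immortalized with telomerase and labelled wild type, grown into a layered epithelium at an air-liquid interface in medium with raised calcium. One group of 4 libraries came from cultures that received DMSO, the vehicle, and the other group of 4 from cultures that received 1 mM dimethyloxalylglycine (DMOG) for 18 h. DMOG resembles 2-oxoglutarate and inhibits the prolyl hydroxylases, whose block keeps the alpha subunits of hypoxia-inducible factor (HIF) from being degraded. Other enzymes that use 2-oxoglutarate are inhibited too. All libraries come from this line, so differences between donors were not sampled, and the labels do not say whether replicates are separate cultures. The p-values therefore measure the spread between these libraries, which may be technical.

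Fatty acids are activated to acyl-CoA by acyl-CoA synthetases and carried into mitochondria by the carnitine shuttle. There, repeated rounds of oxidation, hydration, oxidation and thiolysis shorten the chain and release acetyl-CoA. Electrons from the dehydrogenase step pass through the electron transfer flavoprotein and its dehydrogenase to ubiquinone, while peroxisomes shorten very long and branched chains. PPARA is a nuclear receptor that activates many of these genes in liver and heart, and HIF is known to lower fatty acid oxidation in several cell types. Keratinocytes also use fatty acids for barrier lipids.

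Library totals were 31245695 to 39931833 reads. Values are RPKM (the reads of a gene relative to its length and to the library total) divided by a scaling factor per library, called scaled RPKM. Changes are given as log2(scaled RPKM + 1) in DMOG minus that in vehicle libraries, a scale on which changes of low genes look smaller than they are. The group means in the authors' deposited table come from replicates 1, 3 and 4 of each group; why replicate 2 was omitted was not given in the sources used here. Results are therefore given over all 8 libraries and over those 6. Replicate 2 may have been omitted because of its measured values, and p-values over 6 libraries make no allowance for that. As a check on the treatment, HIF targets were read (CA9, EGLN3, NDUFA4L2, ENO2, PDK1 and BNIP3). In the 6 libraries 6 of 6 were called higher, beside 13.9% of all genes tested, with a median log2 change of 3.70. Over the 8 libraries 0 of these 6 were called, with a median of 3.01, and in 3 of them the groups overlapped. CA9, a carbonic anhydrase, was at 0.822, 1.28, 0.120 and 0.515 scaled RPKM in vehicle replicates 1 to 4 and at 27.5, 2.42, 10.7 and 67.7 in DMOG replicates 1 to 4. DMOG replicate 2 was thus close to the vehicle libraries for CA9, and the other 3 DMOG libraries were well above them. Over all genes tested, the median absolute log2 difference from DMOG replicate 2 was 0.0905 to 0.170 for the vehicle libraries. For the other DMOG libraries it was 0.251 to 0.406, and between vehicle libraries it was 0.111 to 0.213. The cause was not tested. Stratified squamous markers fitted the label, with 7 of 7 at an RPKM of 1 or more in every library. Of 4 fibroblast markers only COL1A1 reached that level in every library, of 3 leukocyte markers only CD68, while the hepatocyte markers ALB and APOA1 and the endothelial marker CDH5 were at 0 reads in all 8.

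Promoter sequences are shown for members whose pattern is described below, because HIF binds DNA at core letters that include ACGTG. Other forms of the core were not searched. RefSeq (GRCh38.p14) gave the 250 bases before a transcription start for 29 of the 34 members, in 41 windows. ACGTG on either strand was present in 6 of the 41 windows (14.6%), in 5 genes (ACADVL, ACADL, ACAD9, HSD17B10 and ETFB). Over all 35114 RefSeq windows of this length the share was 18.5% (6501 windows). The windows of the 3 genes below are those of ECI1 and HSD17B10, the members with the largest decreases on the log2(scaled RPKM + 1) scale, and the member window with 3 matches, ACAD9. They are written 5′ to 3′ on the strand of the gene, with ACGTG or its reverse complement in capitals.
ECI1, chr16:2251588-2251837, minus strand: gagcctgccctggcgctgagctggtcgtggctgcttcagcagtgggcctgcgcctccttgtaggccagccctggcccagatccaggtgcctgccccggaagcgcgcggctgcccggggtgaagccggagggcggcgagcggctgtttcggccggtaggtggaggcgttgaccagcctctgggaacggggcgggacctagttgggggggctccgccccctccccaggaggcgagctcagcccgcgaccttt
HSD17B10, chrX:53434377-53434626, minus strand: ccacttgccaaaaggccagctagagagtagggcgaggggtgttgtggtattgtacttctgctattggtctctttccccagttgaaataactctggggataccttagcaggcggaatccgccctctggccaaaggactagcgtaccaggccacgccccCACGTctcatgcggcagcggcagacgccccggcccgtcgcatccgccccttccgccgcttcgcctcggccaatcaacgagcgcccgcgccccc
ACAD9, chr3:128879370-128879619, plus strand: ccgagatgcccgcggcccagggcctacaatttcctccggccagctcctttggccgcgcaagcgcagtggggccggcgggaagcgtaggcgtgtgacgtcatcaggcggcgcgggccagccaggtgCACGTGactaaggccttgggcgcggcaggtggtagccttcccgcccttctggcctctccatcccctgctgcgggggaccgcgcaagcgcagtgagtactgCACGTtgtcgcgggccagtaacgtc
ECI1 held no match in this window. HSD17B10 held 1, whose first base lies 93 bases before the start. ACAD9 held 3, beginning 125, 124 and 25 bases before the start, of which the first pair overlap on opposite strands. A match is a description of letters and shows neither binding nor its absence.

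HADHA and HADHB, the subunits of the mitochondrial trifunctional protein, lie head to head, and their windows overlap by 194 bases. The window of HADHB is shown with the shared bases in capitals, since both genes are read from it in opposite directions.
HADHB, chr2:26244689-26244938, plus strand: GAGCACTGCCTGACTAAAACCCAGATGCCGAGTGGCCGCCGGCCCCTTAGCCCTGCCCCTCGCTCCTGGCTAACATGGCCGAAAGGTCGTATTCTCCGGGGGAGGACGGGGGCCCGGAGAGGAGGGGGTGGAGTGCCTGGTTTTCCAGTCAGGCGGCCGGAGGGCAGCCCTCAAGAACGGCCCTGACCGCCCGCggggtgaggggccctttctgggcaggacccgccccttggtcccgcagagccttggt
The RefSeq starts are 306 bases apart, and in the deposited hg19 positions 21 bases separate the end of HADHA (chr2:26413504-26467594, minus strand) from the start of HADHB (chr2:26467616-26513333, plus strand).

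Of the 34 members, 31 were tested, having at least 1 RPKM in 4 or more of the 8 libraries. Levels covered a wide range, from ACADVL, the very long chain acyl-CoA dehydrogenase, at 104 ± 19.9 scaled RPKM in the vehicle libraries (SD, n = 4), down to ACADSB, a dehydrogenase of short branched chains, at 2.25 ± 0.241 (SD, n = 4). The 3 members not tested were low in all libraries. ACADL, the long chain acyl-CoA dehydrogenase, had 0 to 1 reads per library. ACSL5, a synthetase of the intestine and liver, lay at 0.0138 to 0.0436 scaled RPKM in vehicle libraries and 0.00 to 0.0369 in DMOG libraries. ACAD11, a dehydrogenase of long and very long chains, lay at 0.312 to 0.377 and 0.299 to 0.593. It overlaps a readthrough gene on its own strand and other genes on the opposite strand, and whether the counting used strand is unknown (not given in the sources used here).

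**Figure D1:**
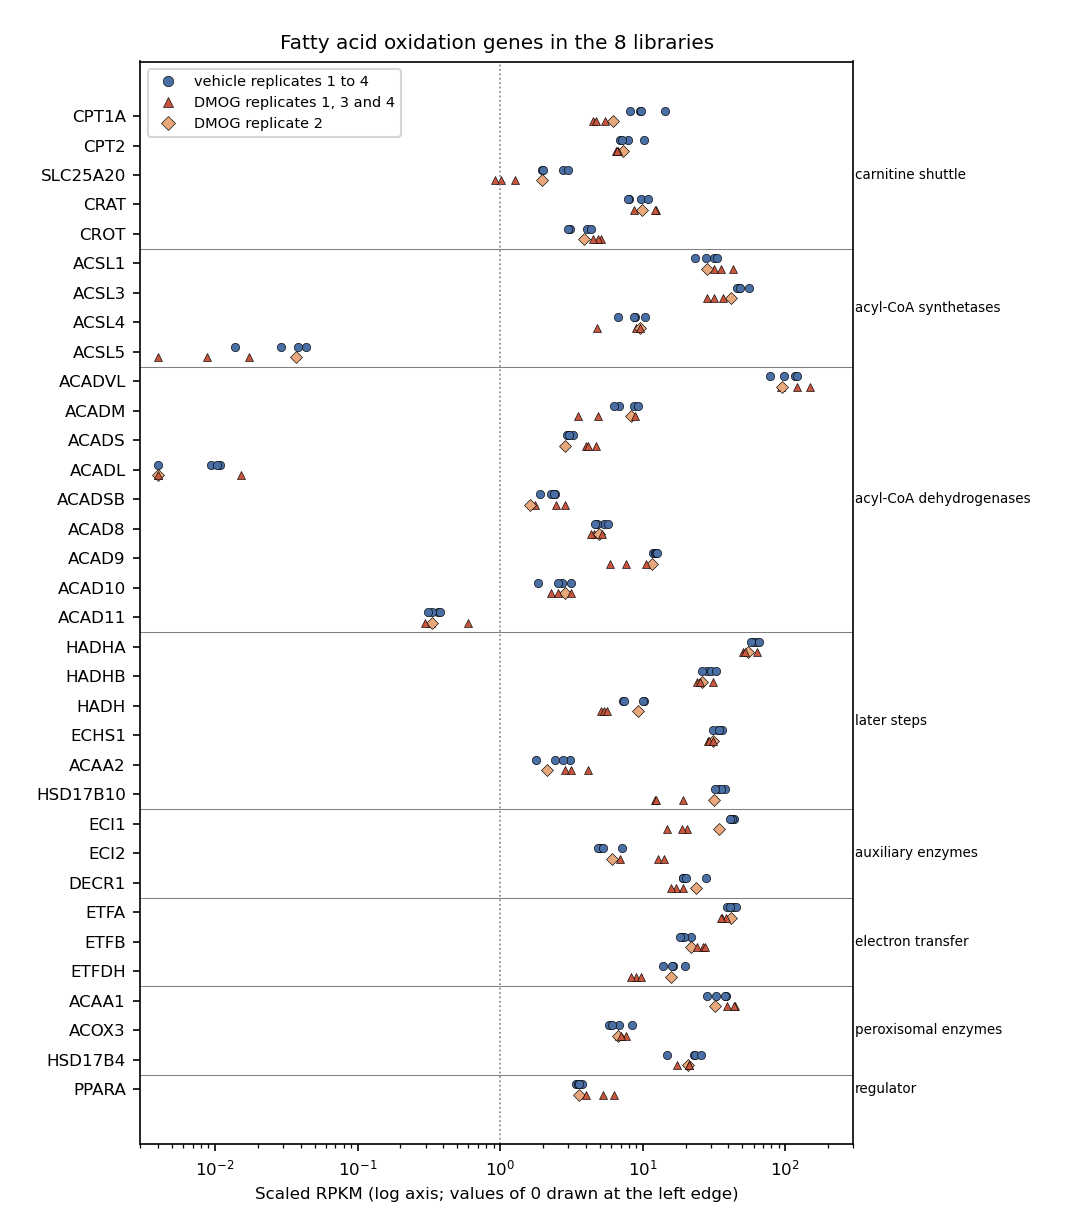
Scaled RPKM on a log axis (x) of the 34 genes (y), grouped by role, with 1 point per library; circles are vehicle replicates 1 to 4, triangles DMOG replicates 1, 3 and 4, and diamonds DMOG replicate 2. The dotted line marks 1 RPKM; ACADVL lies at 78.1 to 122 in the vehicle libraries and ACADL, ACSL5 and ACAD11 lie left of the line in all 8.

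Over all 8 libraries, 0 of 31 members were called higher and 0 lower with DMOG (limma-trend, Benjamini-Hochberg adjusted p under 0.05 over 11122 genes), and the same held for 0.00% of all genes tested. limma-voom on recovered reads also called 0 members. At an unadjusted p under 0.05, 2 members were higher and 7 lower, against 14.0% and 16.3% of all genes. In 6 members every DMOG library lay below every vehicle library, namely CPT1A, ACSL3, ACAD9, ECHS1, HSD17B10 and ECI1, and in 0 every DMOG library lay above, where the shares over all genes were 7.33% and 5.04%. With RPKM as deposited, the groups of ACAD9 and ECHS1 overlapped, while HADHA lay below and ETFB above in every DMOG library. Without DMOG replicate 2 the same comparison called 4 members higher (ACADS, ECI2, ETFB and PPARA) and 8 lower, with 15.6% and 17.6% of all genes called.

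In the 6 libraries, genes at several steps of the pathway fell with DMOG. As a share of the vehicle mean of scaled RPKM, SLC25A20 was reduced to 41.4%, ECI1 to 42.6%, HSD17B10 to 43.0%, CPT1A, which controls entry into the carnitine shuttle, to 43.5%, ETFDH to 51.5%, HADH to 58.1% and ACSL3 to 64.0%. ACADS and ETFB rose, to 138% and 137%. Thus 7 of 31 tested members were called lower (22.6%) and 2 higher (6.45%), and 22 were not called. In 6 members every DMOG library lay above every vehicle library and in 13 below, where the shares over all genes were 24.7% and 26.5%. With the replicate number as a block, 3 members were called higher and 8 lower, beside 19.7% and 20.7% of all genes. Over all genes tested, 16.0% were called lower, 13.9% higher and 29.8% in either direction, against 29.0% of the members, so the members were called about as often as genes in general. Their median log2 change was -0.13, and that of all genes 0.0036. Fewer cells of a type and less RNA per cell cannot be told apart in these bulk libraries. With RPKM as deposited, where the median of all genes shifted by -0.26, 0 members were called higher and 16 lower, beside 6.13% and 34.5% of all genes. The 16 were the 7 above with CPT2, ACAD8, ACAD9, HADHA, HADHB, ECHS1, DECR1, ETFA and HSD17B4.

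**Figure D2:**
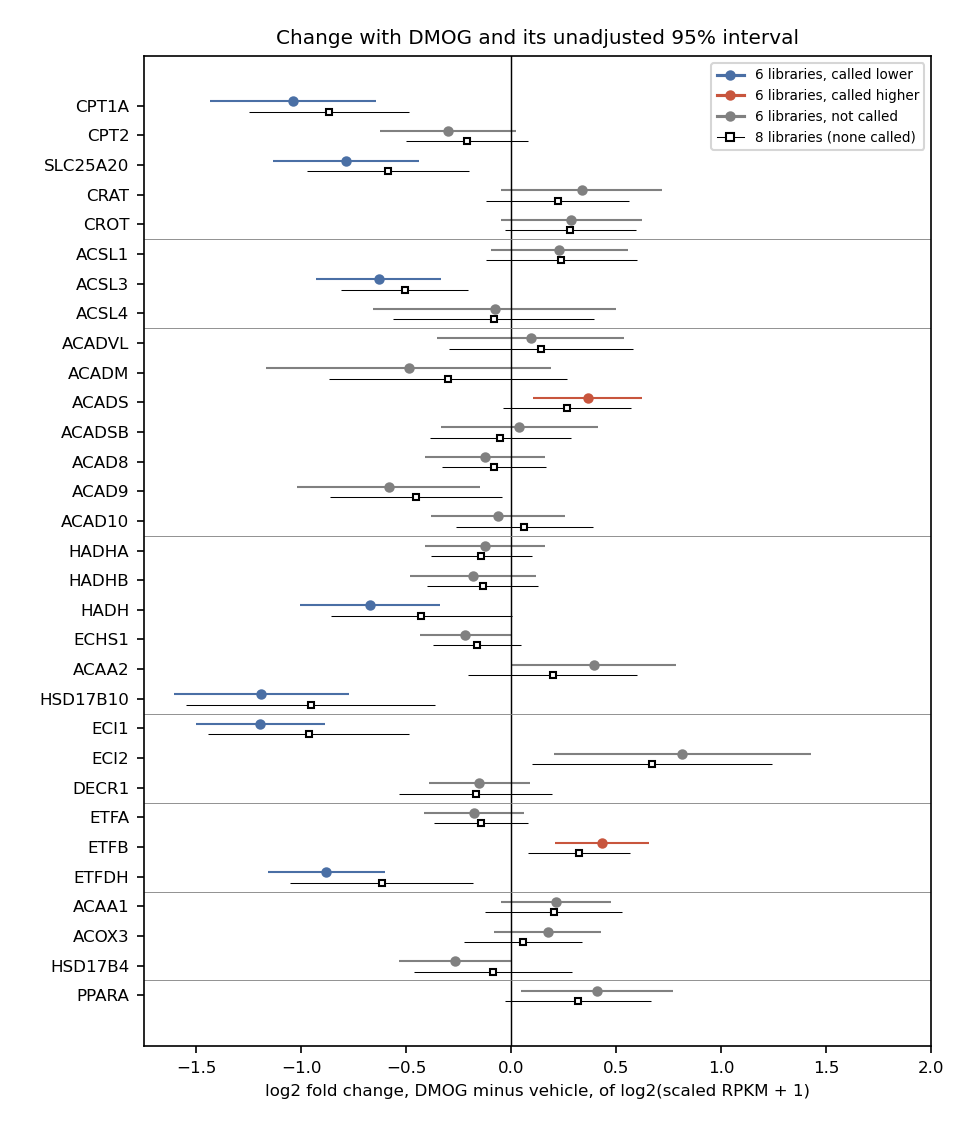
Log2 fold change of each tested member with its unadjusted 95% interval (x, DMOG minus vehicle, of log2(scaled RPKM + 1)) by gene and role (y); filled circles are the 6-library fit, in blue where called lower, red where called higher and grey where not called, and open squares the 8-library fit, in which none was called. ECI1 (-1.20) and HSD17B10 (-1.19) lie farthest to the left.

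The carnitine shuttle has 5 members, of which 2 fell in the 6 libraries and 3 were not called, where 16.0% of all genes fell. CPT1A (chr11:68522088-68609399, hg19, minus strand) joins long acyl chains to carnitine at the outer mitochondrial membrane, the rate-controlling step of entry. It stood at 9.60, 8.16, 9.81 and 14.3 scaled RPKM in vehicle replicates 1 to 4 and at 4.47, 6.15, 4.68 and 5.49 in DMOG replicates 1 to 4. Every DMOG library, replicate 2 included, lay below every vehicle library. In the 6 libraries CPT1A fell by 1.04 on the log2 scale (SE 0.17, limma adjusted p = 0.00837), and in the 8 libraries the log2 difference was -0.87 (limma adjusted p = 0.118).

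SLC25A20 (chr3:48894356-48936426, minus strand) carries acylcarnitines across the inner membrane in exchange for carnitine. Its scaled RPKM was 2.77, 1.96, 2.01 and 2.99 in the vehicle and 1.02, 1.97, 1.28 and 0.916 in the DMOG libraries, from 46 to 219 reads per library. All vehicle libraries lay above DMOG replicates 1, 3 and 4, and DMOG replicate 2 stood beside the lowest of them. The 6-library log2 change was -0.79 (SE 0.15, limma adjusted p = 0.0117). The call was lost without DMOG replicate 1 (0.0520) or either of vehicle replicates 1 (0.0559) and 4 (0.0519), as adjusted p.

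CPT2, which turns acylcarnitine back into acyl-CoA on the inner membrane, was at 7.86, 6.93, 7.22 and 10.3 in the vehicle and 6.54, 7.25, 6.68 and 6.59 in the DMOG libraries. Its 6-library log2 difference was -0.30 (95% interval -0.62 to 0.024, limma adjusted p = 0.133), and its end overlaps C1orf123 on the opposite strand by 98 bases. CRAT and CROT handle short chains and chains from peroxisomes, and neither was called in the 6 libraries. CRAT was called higher without DMOG replicate 3 (limma adjusted p = 0.0212). CRAT had a log2 difference of 0.34 (adjusted p = 0.151) and CROT of 0.29 (adjusted p = 0.158) by limma, both above 0 where those of CPT1A, CPT2 and SLC25A20 were below it.

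Of the 3 tested long-chain acyl-CoA synthetases, ACSL3 fell and ACSL1 and ACSL4 were not called. ACSL3 (chr2:223725732-223808119, plus strand) sits on the endoplasmic reticulum and lipid droplets and feeds lipid synthesis. It had the highest vehicle level of the 3, at 47.8, 46.0, 55.4 and 48.0 scaled RPKM in vehicle replicates 1 to 4, against 28.5, 41.8, 36.6 and 31.7 in DMOG replicates 1 to 4. All DMOG libraries lay below all vehicle libraries. In the 6 libraries ACSL3 fell by 0.63 (SE 0.13, limma adjusted p = 0.0136). This call was lost without DMOG replicate 1 (adjusted p = 0.0574) or either of vehicle replicates 1 (0.0540) and 4 (0.0503).

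ACSL1, a synthetase of the mitochondrial surface and endoplasmic reticulum, was at 28.0, 23.2, 31.8 and 33.4 in the vehicle and 31.8, 28.1, 35.3 and 43.1 in the DMOG libraries. These ranges overlap, and the 6-library log2 difference was 0.23 (SE 0.14, limma adjusted p = 0.237). ACSL4 prefers arachidonic acid and other polyunsaturated chains. It was at 8.86, 10.3, 8.65 and 6.68 in the vehicle and 9.06, 9.55, 9.64 and 4.80 in the DMOG libraries, with DMOG replicate 4 alone far below the others (log2 difference -0.079, limma adjusted p = 0.820).

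Among the acyl-CoA dehydrogenases, which take out the initial pair of hydrogens in each round, 7 of 9 were tested. Of these 1 rose and 6 were not called, where 13.9% of all genes rose. ACADS (chr12:121163571-121177811, plus strand), the short chain enzyme, was at 3.02, 2.93, 3.25 and 3.03 scaled RPKM in the vehicle and 4.01, 2.86, 4.12 and 4.70 in the DMOG libraries. DMOG replicates 1, 3 and 4 lay above all vehicle libraries and DMOG replicate 2 below all of them. In the 6 libraries ACADS rose by 0.36 (SE 0.11, limma adjusted p = 0.0451), close to the threshold. The call was lost under 8 of 12 alternatives, with adjusted p up to 0.382 (RPKM as deposited), and without any of DMOG replicates 1 and 4 and vehicle replicates 1, 3 and 4, each left out in turn (adjusted p = 0.0967, 0.0740, 0.153, 0.0931 and 0.141).

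ACADVL, the enzyme of very long chains and the most abundant member, was at 97.6, 78.1, 117 and 122 in the vehicle and 92.9, 95.6, 121 and 149 in the DMOG libraries. Its groups overlap widely, with a 6-library log2 difference of 0.092 (95% interval -0.35 to 0.54, limma adjusted p = 0.726), and DLG4 overlaps it on the opposite strand by 2926 bases at a level near 1.21 scaled RPKM. ACADM, the medium chain enzyme, was at 8.67, 6.78, 9.22 and 6.32 and 4.86, 8.32, 8.84 and 3.53, respectively. DMOG replicates 1 and 4 were the lowest of the 8 libraries for ACADM and DMOG replicates 2 and 3 lay within the vehicle range (log2 difference -0.49, limma adjusted p = 0.224). Without DMOG replicate 3 ACADM was called lower (adjusted p = 0.0178).

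ACAD9 (chr3:128598333-128631957, plus strand) is needed to assemble respiratory complex I and also oxidizes long unsaturated chains. Vehicle replicates 1 to 4 were close together at 11.8, 12.2, 12.4 and 12.6 scaled RPKM, and DMOG replicates 1 to 4 spread over 5.93, 11.6, 10.6 and 7.60. All DMOG libraries lay below all vehicle libraries on this scale, though not with RPKM as deposited, and the spread among DMOG libraries left a 6-library log2 difference of -0.59 (SE 0.19) just outside the threshold (limma adjusted p = 0.0519). With the replicate number as a block ACAD9 was called lower (adjusted p = 0.0316), as it was with RPKM as deposited (0.0134), with limma-voom (0.0449) and without DMOG replicate 3 (0.00557). ACADSB, ACAD8 (isobutyryl-CoA, from valine) and ACAD10 were not called, with log2 differences of 0.038, -0.12 and -0.065.

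The later steps of each round are hydration, a second oxidation and thiolysis. In the 6 libraries 2 of their 6 members fell, beside 16.0% of all genes. HSD17B10 (chrX:53458206-53461323, minus strand) oxidizes short hydroxyacyl-CoA of isoleucine breakdown and is a subunit of mitochondrial RNase P. Its scaled RPKM was 34.2, 37.6, 35.5 and 32.0 in vehicle replicates 1 to 4 and 12.2, 31.4, 19.2 and 12.4 in DMOG replicates 1 to 4. DMOG replicates 1, 3 and 4 were far below the vehicle libraries and DMOG replicate 2 only just below them. In the 6 libraries it fell by 1.19 (SE 0.18, limma adjusted p = 0.00718), and the call held under 12 of 12 alternatives (adjusted p 8.23e-04 to 0.0394).

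HADH (chr4:108910870-108956331, plus strand) oxidizes hydroxyacyl-CoA of medium and short chains. It was at 10.2, 7.28, 7.35 and 10.1 in the vehicle and 5.08, 9.22, 5.37 and 5.60 in the DMOG libraries. Below all vehicle libraries lay DMOG replicates 1, 3 and 4, within a narrow range, and DMOG replicate 2 lay inside the vehicle range. HADH fell by 0.67 in the 6 libraries (SE 0.14, limma adjusted p = 0.0155). The call was lost without DMOG replicate 1 (adjusted p = 0.0641) or either of vehicle replicates 1 (0.0713) and 4 (0.0672).

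The trifunctional protein, which carries out the later steps for long chains, was not called in either subunit. HADHA was at 59.0, 63.4, 57.2 and 65.3 in the vehicle and 50.9, 55.2, 52.5 and 63.3 in the DMOG libraries. HADHB was at 28.5, 26.0, 30.1 and 32.6 and 24.1, 26.0, 25.1 and 31.2, respectively. Both pairs of groups overlap, with log2 differences of -0.13 (95% interval -0.41 to 0.16) for HADHA and -0.18 (-0.48 to 0.12) for HADHB. ECHS1, the short chain hydratase, was at 33.5, 31.3, 36.2 and 34.1 in the vehicle and 28.8, 31.3, 29.1 and 31.0 in the DMOG libraries. Its groups did not overlap on this scale, by a margin smaller than the digits given, and overlapped with RPKM as deposited, and its log2 difference of -0.22 was not called (limma adjusted p = 0.111). ACAA2, the mitochondrial thiolase, had a log2 difference of 0.39 (limma adjusted p = 0.110).

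Unsaturated chains need auxiliary enzymes that move or reduce a bond between carbons, and of these 3 members 1 fell, beside 16.0% of all genes. ECI1 (chr16:2289873-2301602, minus strand), the mitochondrial enoyl-CoA isomerase, was at 43.9, 41.5, 42.0 and 41.1 scaled RPKM in vehicle replicates 1 to 4 and 20.4, 34.2, 18.8 and 14.9 in DMOG replicates 1 to 4. The vehicle libraries were tightly grouped, DMOG replicates 1, 3 and 4 far below them, and DMOG replicate 2 between the groups. ECI1 fell by 1.20 in the 6 libraries (SE 0.13, limma adjusted p = 0.00404), and the call held under 12 of 12 alternatives (adjusted p 0.00218 to 0.0298). Over 8 libraries the log2 difference was -0.97 (SE 0.21, limma adjusted p = 0.118).

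ECI2 (chr6:4115927-4135831, minus strand) is an isomerase found in both mitochondria and peroxisomes. It was at 7.22, 5.02, 4.87 and 5.25 in the vehicle and 12.8, 6.06, 6.94 and 14.0 in the DMOG libraries. DMOG replicates 1 and 4 were well above all other libraries, while DMOG replicate 3 stood below vehicle replicate 1. The 6-library log2 difference was 0.81 (SE 0.26, limma adjusted p = 0.0530), and ECI2 was called higher with the replicate number as a block (adjusted p = 0.0202) and without DMOG replicate 3 (0.00439). DECR1, the mitochondrial dienoyl-CoA reductase, was at 19.2, 27.9, 19.1 and 20.0 in the vehicle and 19.1, 23.7, 17.3 and 15.9 in the DMOG libraries, and was not called (log2 difference -0.15, limma adjusted p = 0.284).

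The electron transfer genes moved in different directions. ETFA and ETFB encode the subunits of the electron transfer flavoprotein, which accepts electrons from the acyl-CoA dehydrogenases, and ETFDH (chr4:159593253-159629865, plus strand) passes them on to ubiquinone. ETFDH was at 16.4, 13.9, 16.2 and 19.8 scaled RPKM in the vehicle and 8.92, 15.8, 9.68 and 8.33 in the DMOG libraries. DMOG replicates 1, 3 and 4 lay below all vehicle libraries, and DMOG replicate 2 within them. ETFDH fell by 0.88 (SE 0.12, limma adjusted p = 0.00571) in the 6 libraries and under 12 of 12 alternatives (adjusted p 0.00290 to 0.0352). At its start ETFDH overlaps C4orf46 on the opposite strand by 155 bases.

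ETFB (chr19:51848409-51869672, minus strand) was at 19.0, 21.8, 19.5 and 18.4 in the vehicle and 26.3, 21.7, 24.2 and 27.3 in the DMOG libraries. DMOG replicates 1, 3 and 4 were above all vehicle libraries, and DMOG replicate 2 within their range. ETFB rose by 0.43 (SE 0.094, limma adjusted p = 0.0174), a call that was lost with RPKM as deposited (log2 difference 0.14, adjusted p = 0.259) and without DMOG replicate 1 (0.0697) or either of vehicle replicates 1 (0.0765) and 4 (0.0762). ETFA was at 38.8, 43.2, 45.1 and 40.7 in the vehicle and 36.1, 41.6, 38.3 and 35.5 in the DMOG libraries, and was not called (log2 difference -0.18, limma adjusted p = 0.214).

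The 3 peroxisomal members were not called in either direction. HSD17B4, the bifunctional hydratase and dehydrogenase, was at 23.0, 14.9, 23.2 and 25.9 scaled RPKM in the vehicle and 17.4, 20.7, 21.1 and 21.0 in the DMOG libraries. Its 6-library log2 difference was -0.27 (limma adjusted p = 0.115). In those libraries every DMOG value lay below every vehicle value, as for 26.5% of all genes. Over all 8 libraries the log2 difference was -0.087. Vehicle replicate 2 was the lowest of the 8, so that the groups overlap there. ACAA1, the peroxisomal thiolase, had a log2 difference of 0.21 (95% interval -0.051 to 0.48, limma adjusted p = 0.179), and ACOX3, the oxidase of branched chains, of 0.17 (-0.083 to 0.43, adjusted p = 0.253). Both differences were below 0 with RPKM as deposited (-0.087 and -0.095), where the median of all genes lay at -0.26.

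PPARA (chr22:46546499-46639653, plus strand), the nuclear receptor among the members, was at 3.76, 3.42, 3.54 and 3.59 scaled RPKM in vehicle replicates 1 to 4 and at 5.30, 3.58, 4.03 and 6.30 in DMOG replicates 1 to 4. The vehicle libraries differed little, DMOG replicates 1, 3 and 4 lay above them on this scale (not with RPKM as deposited), and DMOG replicate 2 was among them. The 6-library log2 difference was 0.41 (SE 0.15), not called at a limma adjusted p of 0.0809. It was called higher without DMOG replicate 3 (adjusted p = 0.0131).

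Ratios of related members within a library do not depend on the scaling factor. The 6 ratios given here were chosen after the values were seen and are a description without a test. The ratio of ECI1 to ECI2 was 6.08, 8.26, 8.62 and 7.83 in vehicle replicates 1 to 4 and 1.60, 5.64, 2.71 and 1.06 in DMOG replicates 1 to 4. ECI1 thus stood well above ECI2 in every vehicle library and nearly level with it in DMOG replicate 4, with DMOG replicate 2 just below the vehicle range. The ratio of ETFB to ETFA was 0.432 to 0.505 in the vehicle libraries, 0.633 to 0.768 in DMOG replicates 1, 3 and 4, and 0.522 in DMOG replicate 2. The ratio of ETFDH to ETFB was 0.639 to 1.07, 0.305 to 0.399 and 0.730, respectively. The flavoprotein subunits and their dehydrogenase were thus in other proportions in DMOG replicates 1, 3 and 4 than in the vehicle libraries, while DMOG replicate 2 was near the vehicle values.

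Ratios at entry and activation were lower in the same 3 DMOG libraries. The ratio of CPT1A to CPT2 was 1.18 to 1.39 in the vehicle libraries, 0.684 to 0.833 in DMOG replicates 1, 3 and 4 and 0.848 in DMOG replicate 2, so that all DMOG libraries lay below all vehicle libraries. The ratio of ACSL3 to ACSL1 was 1.44 to 1.98, 0.734 to 1.04 and 1.49, respectively, with DMOG replicate 2 inside the vehicle range. The ratio of HADHA to HADHB, whose windows share sequence as shown above, was 1.90 to 2.44 in the vehicle libraries and 2.03 to 2.11 in DMOG replicates 1, 3 and 4, and these ranges overlap.

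**Figure D3:**
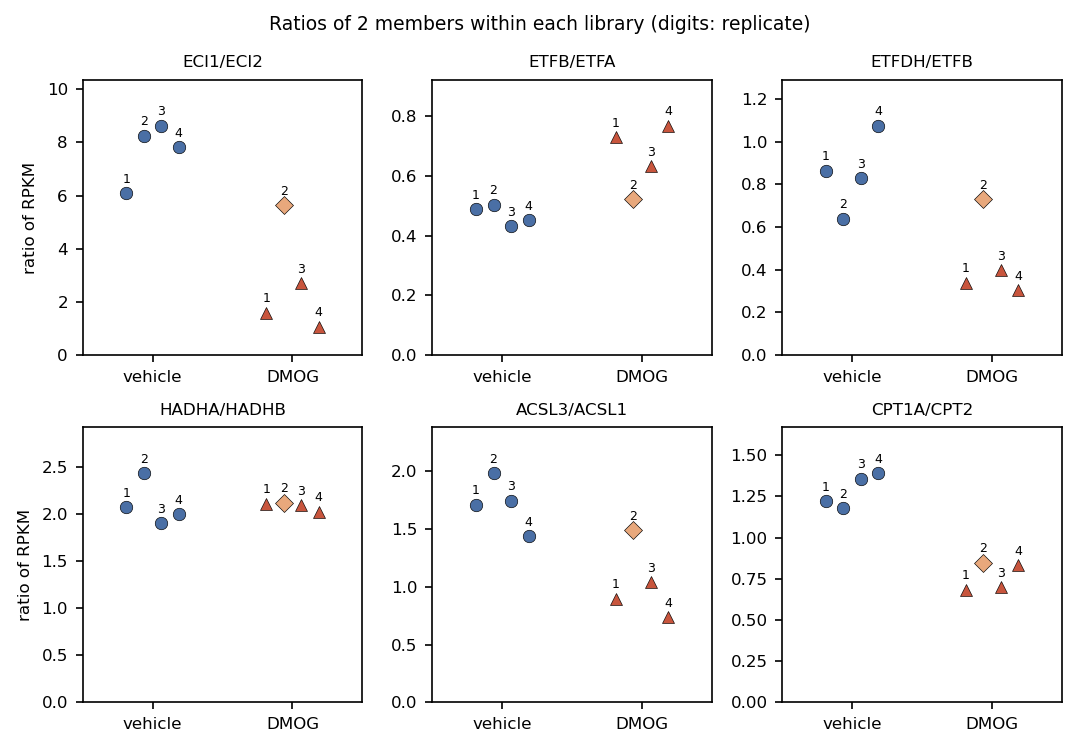
Ratio of the RPKM of 2 members within each library (y, from 0) for 6 pairs, by group (x), with the replicate number beside each point; circles are vehicle, triangles DMOG replicates 1, 3 and 4, and diamonds DMOG replicate 2. In the panel of ECI1 over ECI2, vehicle points lie at 6.08 to 8.62 and DMOG replicates 1, 3 and 4 at 1.06 to 2.71, while the HADHA over HADHB points of both groups overlap.

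Replicate 2 of DMOG did not enter the 6-library fit. For 22 of the 31 tested members it lay within the range of the 4 vehicle libraries (71.0%, against 72.2% of all genes tested). It lay below that range for 9 members (29.0%, against 15.2% of all genes) and above it for 0 (against 12.6% of all genes). Of the 7 members that fell in the other libraries, DMOG replicate 2 was below vehicle replicate 2 in 4, namely CPT1A, ACSL3, HSD17B10 and ECI1, and above it in SLC25A20, HADH and ETFDH. For ACADS and ETFB it was below vehicle replicate 2. DMOG replicate 2 was below vehicle replicate 2 in 16 of the 31 members and in 5812 of all 11122 genes tested. Vehicle replicate 2 in turn was the lowest of the vehicle libraries for 15 of 31 members (48.4%, against 32.6% of all genes). CA9 stood at 2.42 scaled RPKM in DMOG replicate 2 and at 10.7 to 67.7 in the other DMOG libraries. A relation of CA9 to the members' values was not tested.

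The summed level of the fibroblast markers was higher in every DMOG library than in every vehicle library. The sums of the leukocyte, simple epithelium and stratified squamous markers overlapped between the groups. That of the simple epithelium markers was 92.3 to 136 scaled RPKM in vehicle and 93.2 to 119 in DMOG libraries. That of the stratified squamous markers was 8945 to 18120 and 13730 to 16590, with the highest value in vehicle replicate 2. The summed scaled RPKM of the 4 fibroblast markers was 8.64 to 12.6 in vehicle and 18.0 to 37.7 in DMOG libraries, nearly all of it from COL1A1 (COL1A2, COL3A1 and PDGFRB were near 0), and that of the 3 leukocyte markers was 37.5 to 68.3 and 57.5 to 99.9, nearly all of it from CD68 (PTPRC and CD3E were near 0). KRT5 and KRT14, keratins of the basal layer, were called higher in the 6 libraries, beside 13.9% of all genes. They rose by 0.75 and 0.69 on the log2 scale (limma adjusted p = 0.0287 and 0.0151). How far these calls depend on a single library is not given here. KRT13, a keratin of the upper layers, was at 568, 613, 1280.4 and 239 in the vehicle and 451, 557, 1438 and 324 in the DMOG libraries. These KRT13 ranges overlap. The other stratified squamous markers are not given by gene here. The part of the marker differences in the members' values was not tested.

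The wider pathway was read from 7 lists with 119 further genes, of which 87 were tested. In the 6 libraries 12 of them were called higher and 15 lower, beside 13.9% and 16.0% of all genes, and over 8 libraries 0 were called. Their median log2 change was -0.11, and that of all genes 0.0036. Among 23 tested genes of branched-chain and odd-chain oxidation, ketone bodies and related mitochondrial or auxiliary steps, 8 fell and 2 rose, with a median of -0.37. PCCB, a subunit of propionyl-CoA carboxylase, fell by 1.56 (SE 0.17, limma adjusted p = 0.00407), with 7.89 to 12.0 scaled RPKM in the vehicle libraries and 2.49 to 3.72 in DMOG replicates 1, 3 and 4. GCDH, which breaks down glutaryl-CoA, fell by 1.27 (adjusted p = 0.00786), TMEM126B, a complex I assembly factor that works with ACAD9, by 0.99 (0.0191), and ECHDC1, an ethylmalonyl-CoA decarboxylase, by 0.95 (0.0100). With 1 library left out in turn, 4 to 10 genes of this list were called lower and 0 to 2 higher, with the fewest lower without vehicle replicate 1 or 4. PCCB, GCDH and ECHDC1 were called lower under 12 of 12 alternatives, and TMEM126B not without DMOG replicate 1 or vehicle replicate 1, 3 or 4.

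Genes of uptake and binding showed 3 increases and 1 decrease among 14 tested, beside 13.9% and 16.0% of all genes. FABP5, the epidermal fatty acid binding protein, was at 839 to 1222 scaled RPKM in the vehicle and 1514 to 2561 in DMOG replicates 1, 3 and 4 and rose by 1.03 (SE 0.25, limma adjusted p = 0.0251). The transporter SLC27A1 rose by 0.91 (adjusted p = 0.0233) and the scavenger receptor CD36 by 0.76 (0.0200), and ACBD6, an acyl-CoA binding protein, fell by 0.91 (0.00826). The 3 increases were lost without vehicle replicate 1, where 0 genes of this list were called higher. FABP5 was not called without vehicle replicate 4 or DMOG replicate 4 either, SLC27A1 without vehicle replicate 3 or 4 or DMOG replicate 1, and CD36 without vehicle replicate 3. With no filter FABP5 was not called. Of 5 tested genes in the carnitine list 1 was called, beside 29.8% of all genes, and 4 were not. The called gene, SLC25A29, is a mitochondrial carrier of basic amino acids. SLC25A29 rose by 0.96 (limma adjusted p = 0.0206), a call lost without DMOG replicate 1 or vehicle replicate 1, 3 or 4. CPT1B and CPT1C, the muscle and brain forms of CPT1, did not reach the level for testing.

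Among 14 tested genes of peroxisomal oxidation, 1 rose and 1 fell, beside 13.9% and 16.0% of all genes. HACL1, which cleaves branched acyl-CoA, fell by 0.62 (limma adjusted p = 0.00998), a call lost without vehicle replicate 1 or 4. Of 16 peroxisome biogenesis genes 4 fell and 0 rose, beside 16.0% and 13.9% of all genes. These 4 were PEX10, PEX26, PEX7 and PEX16, by 0.47, 0.43, 0.44 and 0.40 (limma adjusted p = 0.0340, 0.0459, 0.0295 and 0.0248). All 4 calls were lost without vehicle replicate 1, 3 or 4 or DMOG replicate 1, each left out in turn, and those of PEX10 and PEX26 without DMOG replicate 4. PEX10 and PEX26 were also not called with no filter, and PEX26 not with upper-quartile factors.

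Of 13 tested regulators 4 rose and 1 fell, beside 13.9% and 16.0% of all genes. PPARD, the PPAR form most abundant in keratinocytes, was at 30.0 to 55.7 scaled RPKM in the vehicle libraries, 102 to 128 in DMOG replicates 1, 3 and 4 and 38.7 in DMOG replicate 2. It rose by 1.55 (SE 0.20, limma adjusted p = 0.00537), and the call held under 12 of 12 alternatives (adjusted p 0.00378 to 0.0349). RXRA, the partner of PPARs on DNA, rose by 0.53 (adjusted p = 0.0251), but was not called with RPKM as deposited (0.149). ACACA, the carboxylase that makes malonyl-CoA, the inhibitor of CPT1A, fell by 0.78 (0.0110). With vehicle replicate 1 or 4 left out, 1 regulator was called higher, PPARD, and 0 lower, and RXRA was also lost without DMOG replicate 1 or vehicle replicate 3. PPARG was at 0.0309 to 0.0840 and PPARGC1A at 0.00 to 0.00369 in the vehicle libraries and were not tested.

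Of 9 PPARA targets outside the other lists 2 were tested. In the 6 libraries 1 was called higher, beside 13.9% of all genes, and 1 was not called. The target that was not called had a log2 difference below 0 and was called lower with the replicate number as a block. ANGPTL4, a lipoprotein lipase inhibitor that HIF also induces, was at 23.1, 31.0, 68.3 and 14.8 scaled RPKM in the vehicle and 143, 15.5, 108 and 222 in the DMOG libraries. The highest 3 libraries were DMOG replicates 1, 3 and 4, with DMOG replicate 2 near the lowest of the vehicle libraries. It rose by 2.35 (SE 0.54, limma adjusted p = 0.0202), a call lost without DMOG replicate 1 (0.0673) or either of vehicle replicates 1 (0.0750) and 4 (0.0613). PDK4, which restrains pyruvate oxidation and is a textbook PPARA target, was at 0.0154 to 0.0954 scaled RPKM in the vehicle libraries and was not tested.

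**Figure D4:**
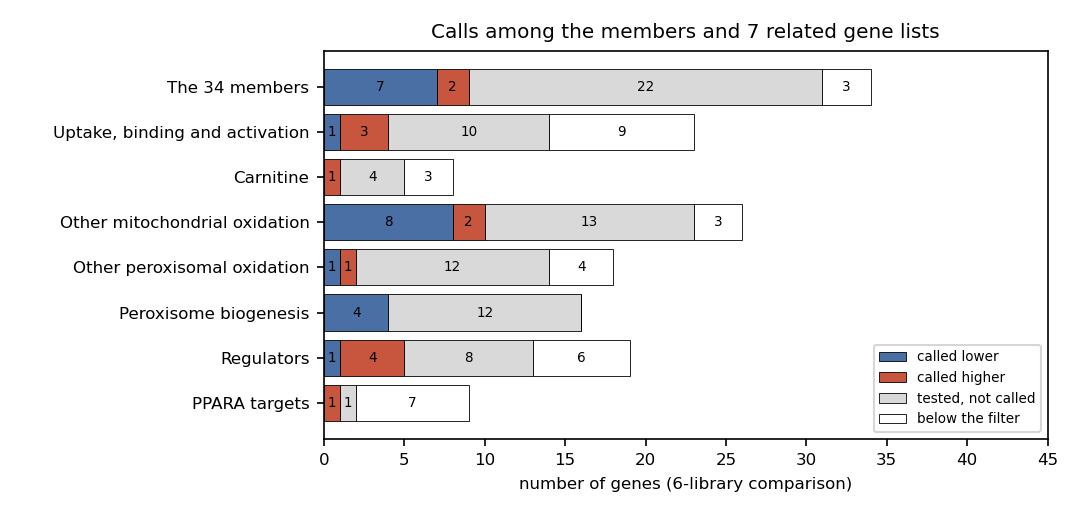
Number of genes (x) called lower, called higher, tested but not called and below the filter in the 6-library comparison, for the fatty acid oxidation members and 7 related lists (y). The members have 7 lower and 2 higher, and the list of other mitochondrial oxidation 8 lower and 2 higher.

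The authors' deposited table holds 32 of the members, without ACSL5 and ACADL, and calls 4 higher and 8 lower at their adjusted p under 0.05, beside 18.8% and 17.6% of its 13424 genes. It calls lower the 7 members named above and ACAD9 (ratio 0.655, adjusted p = 0.0303 in the authors' deposited table). It calls higher ACADS, ETFB, ECI2 (ratio 1.95, adjusted p = 0.00942) and PPARA (ratio 1.44, adjusted p = 0.0293), again as the authors' deposited table gives them. The smallest adjusted p among the members in the authors' deposited table is that of ECI1 (2.28e-11, ratio 0.426). These values rest on the same 6 libraries as the fit above and are no independent measurement.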

How the data were processed

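Per the labels, 8 RNA samples of air-liquid interface cultures were sequenced, grouped by the treatment named and numbered from the titles. The submitters' processing notes name HTSeq 0.6.1, Picard 1.129, SAMtools 1.3.1, Bowtie2 2.2.3.0, TopHat2 2.0.13, FastQC 0.11.5 and bcl2fastq without role or order, and both hg19 and hg38. The authors deposited RPKM although the table is named as counts; its positions are those of hg19. Multiplied by gene length and divided by the value of 1 read, 100% of values above 0 were whole within 0.01 reads, which gave library totals, except for 597 genes with several positions. Per the file headers, the authors' comparison table gives group means on a signal scale, their ratio, its log2 and p-values, raw and adjusted; the tool behind it was not given in the sources used here.

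RPKM were divided by median-ratio factors over the 8 libraries (0.849 to 1.14). limma-trend (limma 3.58.1, R 4.3.3, robust) was fitted to log2(scaled RPKM + 1), with a term for the group alone, over the 11122 genes with at least 1 RPKM in 4 or more libraries. P-values were two-sided, adjusted over all genes by Benjamini-Hochberg with a threshold of 0.05, and the script was tested on simulated data. The 6 libraries were identified by writing the authors' means as sums over libraries. Deviations of same-numbered libraries correlated at 0.47, 0.40 and 0.34 over the 6 libraries. This pairing, seen in the data alone, entered only the alternative with the replicate number as a block. The limma calls, SEs and intervals given make no use of it unless the block is named. Over the 8 they correlated at 0.07, -0.02, 0.53 and 0.24. Members and lists were chosen with earlier results of these data known. All 34 members are given, and of each other list the called genes with the largest change, at most 4. Some genes of these lists are counted but not reported by name here. Alternatives were RPKM as deposited, upper-quartile factors, a pseudocount of 0.1, no filter, limma-voom on recovered reads, a replicate block and leaving out each library.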

Additional observations from a re-analysis of the deposited data

Results flagged for a closer look

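In 8 of 102 groups of 4 libraries (members and named genes), a single library stood farther from the other 3 than Dixon's 95% limit allows. For independent groups chance alone gives about 1 in 20. That rate need not hold here, as all genes share the same libraries and the named genes were picked by their 6-library calls. HADH was at 9.22 scaled RPKM in DMOG replicate 2 against 5.08 to 5.60 in the other DMOG libraries, and PEX7 at 4.94 in DMOG replicate 2 against 3.23 to 3.27. ACSL4 was at 4.80 in DMOG replicate 4 against 9.06 to 9.65 in the others. HSD17B4 was at 17.4 in DMOG replicate 1 against 20.7 to 21.1. In the vehicle group, ECI2 was at 7.22 in replicate 1 against 4.87 to 5.25, and DECR1 at 27.9 in replicate 2 against 19.1 to 20.0. HACL1 was at 4.06 in vehicle replicate 2 against 3.30 to 3.41, and RXRA at 23.2 in vehicle replicate 4 against 21.0 to 21.3.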

How the results depend on the processing

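The 6-library calls of CPT1A, HSD17B10, ECI1 and ETFDH held under all 12 alternatives. Over all genes, RPKM as deposited gave 682 higher and 3836 lower calls, against 1541 and 1775. Members called higher numbered 0 with RPKM as deposited, 1 with limma-voom and 1 with no filter, against 2, and members called lower 16 with RPKM as deposited, against 7. The replicate block gave 2196 higher and 2297 lower genes and 3 and 8 members; it changed no other member's call than those of ACAD9 and ECI2. Leaving out 1 of the 6 libraries gave 389 to 2265 higher and 497 to 2493 lower genes, and 0 to 5 and 4 to 9 members; the fewest members came without vehicle replicate 1 or 4 or DMOG replicate 1, and the most without DMOG replicate 3. Over 8 libraries, where limma-trend called 0 genes (unadjusted p under 0.05: 1556 higher, 1813 lower; limma-voom: 0), leaving out 1 library gave 0 to 1731 higher and 0 to 1956 lower genes, and 0 to 4 and 0 to 8 members, the most in each case without DMOG replicate 2, and the replicate block gave 0.

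Log2 differences of uncalled members changed sign as follows. Over 8 libraries with RPKM as deposited they were -0.070 for ACADVL, -0.095 for ACAD10, -0.0073 for ACAA1 and -0.13 for ACOX3. With 1 of the 8 libraries left out they ranged from -0.19 to 0.13 for ACSL4 (above 0 without DMOG replicate 4), -0.15 to 0.034 for ACADSB (above 0 without DMOG replicate 1 or 2), -0.042 to 0.14 for ACAD10 (below 0 without vehicle replicate 2), -0.0071 to 0.15 for ACOX3 (below 0 without vehicle replicate 3) and -0.25 to 0.0026 for HSD17B4 (above 0 without vehicle replicate 4). Over 6 libraries with RPKM as deposited they were -0.070 for ACSL1, -0.21 for ACADVL, -0.18 for ACADSB, -0.087 for ACAA1 and -0.095 for ACOX3. With 1 of the 6 left out they ranged from -0.24 to 0.20 for ACSL4 (above 0 without DMOG replicate 4), -0.071 to 0.27 for ACADVL and -0.070 to 0.17 for ACADSB (both below 0 without DMOG replicate 4 or vehicle replicate 1), and -0.16 to 0.011 for ACAD10 (above 0 without DMOG replicate 1 or vehicle replicate 4). The cause was not tested. With RPKM as deposited the median of all genes lies at -0.26 (6 libraries) and -0.18 (8 libraries). Genes near 1 RPKM rest on few reads.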
